A study of Mus musculus with 36 samples.

Results

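The genes described here are 8 genes of megakaryocytes, the large marrow cells that shed platelets, and of the platelets themselves: Itga2b, F2r, Gp1bb, Gp9, Selp, Pf4, Vwf and Rab27b. They were matched by symbol to the gene identifiers of both deposited count tables, and all 8 were found among the 55414 identifiers in each table. RNA was sequenced from 3 stem and progenitor cell populations sorted from mice that carry the Kmt2a-AFF1 fusion, a fusion known from infant leukaemia. In the leukaemic mice the sample labels give miR-130b overexpression, while the series' design text names miR-130a; each of these 12 mice gave 1 library from the central nervous system (CNS) and 1 from the bone marrow (BM), both of the same sorted population. The 4 control mice were not leukaemic, overexpressed a scrambled microRNA on the same Kmt2a-AFF1 genotype, and each gave 1 BM library of every population. The sorted populations were HSC/MPP (lineage-negative, Kit+, Sca-1+, Flt3-), LMPP (lineage-negative, Kit+, Sca-1+, Flt3+) and LK/CLP (lineage-negative, Kit+, Sca-1-), called HSC, LMPP and LK here. This gave 9 groups of 4 libraries, 36 in all. The sources used here give no age and no driver of the fusion, and the controls carry the fusion too, so no group stands for wild-type marrow.

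Megakaryocytes arise from haematopoietic stem cells, either through erythroid-megakaryocytic progenitors or by a more direct route, and part of the stem cell pool already carries RNA of platelet genes. Platelets stick to injured vessel walls when the glycoprotein Ib-IX-V complex (Gp1bb, Gp9) binds von Willebrand factor (Vwf), are activated by thrombin through protease-activated receptors, aggregate through the integrin whose alpha chain is Itga2b (CD41), and release granules that hold Pf4, Vwf and P-selectin (Selp). F2r is the thrombin receptor PAR1, which serves human platelets. Mouse platelets use F2rl2 and F2rl3 in its place, and F2r is found on mouse endothelium and progenitors. Vwf and Selp are also endothelial genes, and Pf4 is also used by macrophages at the borders of the brain.

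GATA and ETS factors are textbook regulators of genes in this lineage, so the promoters of the members were searched for their motifs on both strands: the letters AGATAA, those of TGATAA or those of AGATAG for GATA, and the letters CGGAAG or else AGGAAG for ETS, which do not overlap with the others. RefSeq promoters (GRCm38.p6, 250 bases before to 50 after the start site) were listed for 6 of the 8 members; Vwf and Rab27b were not among them. The bases before the start site are shown for 3 members, the one that was higher in leukaemia (Selp) and a surface and a granule gene that were lower (Itga2b, Pf4). Capitals mark ETS matches on either strand, and no GATA match lay in the printed bases.
Itga2b, chr11:102469884-102470133, minus strand: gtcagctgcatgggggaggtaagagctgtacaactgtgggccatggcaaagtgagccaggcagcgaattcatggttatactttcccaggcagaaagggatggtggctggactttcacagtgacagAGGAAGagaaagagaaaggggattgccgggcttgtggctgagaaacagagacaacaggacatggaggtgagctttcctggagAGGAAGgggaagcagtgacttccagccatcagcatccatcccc
Pf4, chr5:90772185-90772434, plus strand: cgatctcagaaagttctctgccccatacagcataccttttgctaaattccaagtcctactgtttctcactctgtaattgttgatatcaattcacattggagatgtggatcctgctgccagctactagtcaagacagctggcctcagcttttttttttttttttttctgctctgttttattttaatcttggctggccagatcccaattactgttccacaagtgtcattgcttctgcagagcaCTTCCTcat
Selp, chr1:164115014-164115263, plus strand: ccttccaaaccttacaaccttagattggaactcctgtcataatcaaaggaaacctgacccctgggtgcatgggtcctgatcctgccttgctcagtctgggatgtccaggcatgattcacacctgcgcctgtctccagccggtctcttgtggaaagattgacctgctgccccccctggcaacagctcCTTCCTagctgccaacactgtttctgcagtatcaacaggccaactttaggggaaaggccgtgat
Itga2b had 2 ETS matches, with first bases at -125 and -43 from the start site, Pf4 had 1 at -9, and Selp had 1 at -64. In the bases after the start site, Pf4 had a GATA match at 36 and Selp a further ETS match at 19. Gp1bb and Gp9 also held an ETS match, and F2r held neither motif. Of all 32851 promoters of this length, 46.5% held an ETS match, 25.1% a GATA match and 10.5% both, so such matches are common and describe these letters only.

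Library totals ran between 1.91 and 30.4 M counts. Every library also carried a near-uniform background over the genome, measured on 1779 sensory receptor genes that these cells do not use. It made up between 0.461% and 27.9% of the counts, with medians of 9.15%, 1.83% and 6.17% in leukaemic BM HSC, LMPP and LK, and 25.0%, 22.7% and 10.1% in control BM HSC, LMPP and LK. A gene was called above background in a library when its count was more than 3 times the background for its exon length plus 10 counts. Levels are given as CPM, counts per M (mega) of effective library size. That size was the library's counts in the 17160 genes above background in at least 4 of the 36 libraries, scaled with TMM factors. Each comparison was tested with edgeR's quasi-likelihood test in 2 ways: over all genes with at least 10 counts in 4 libraries, called the all-gene test, and over the genes above background, called the above-background test, with Benjamini-Hochberg adjustment over all genes tested and a threshold of 0.05. The scaling of the second moved the median log2 fold change of genes above background by -1.21 in HSC, -1.65 in LMPP and -0.35 in LK for leukaemia over control, and by 1.66 for HSC over LK, 1.48 for LMPP over LK and 0.17 for HSC over LMPP in control marrow, so both fold changes are printed wherever they differ in call or sign. Kit, on which all cells were sorted, averaged 139 to 290 CPM in the 9 groups. Ly6a, the gene for Sca-1, averaged 2.55 to 3.14 CPM in LK and 16.6 to 41.2 CPM in the other populations, and Flt3 averaged 575, 520.5 and 270 CPM in CNS, leukaemic BM and control LMPP. Flt3 was also at 278 and 298 CPM in CNS and leukaemic BM LK, against 41.2 CPM in control LK.

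The members fell into 2 sets by whether they could be told from the background. Selp was above it in 31 of the 36 libraries, F2r in 27, Itga2b in 24, Vwf in 13, Pf4 in 10 and Gp9 in 6, while Gp1bb and Rab27b were above it in none. Rab27b, the small GTPase that docks platelet granules for release, had a median count of 1.01 times its background, with all libraries between 0.367 and 1.96 times. Gp1bb, the beta chain of glycoprotein Ib, had 0 counts in 19 libraries, where counting error allows up to 3 counts, and at most 44 counts, in CNS HSC replicate 4. That library had 1.39 times the background for Gp1bb. All others lay below the background, at no more than 0.351 times, the highest value in control LMPP. Of the exon bases of Gp1bb, 91.1% also belong to Sept5 on the same strand, and the labels do not say how reads of shared bases were counted, so its level is uncertain. The part of the shared bases in its low counts was not tested. Of the exon bases of Selp, 9.93% lie opposite Gm16548 and 4.21% opposite Gm16587, whose reads cannot be told apart where strand was not used. Per kilobase of exon, the median level over the 36 libraries was 16.7 CPM for Selp, 4.65 for F2r, 4.65 for Pf4, 4.58 for Itga2b, 2.36 for Vwf, 2.09 for Gp9 and 0.776 for Rab27b. Per length and over all 36 libraries, then, Selp stood above the other members, and the 3 next genes lay close together. That order did not hold in control HSC and LK. In control HSC the mean per kilobase was 10.7 CPM for F2r, 10.2 for Itga2b and 7.37 for Selp. In control LK it was 11.4 CPM for F2r, 8.17 for Itga2b, 7.79 for Pf4 and 4.51 for Selp.

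**Figure D1:**
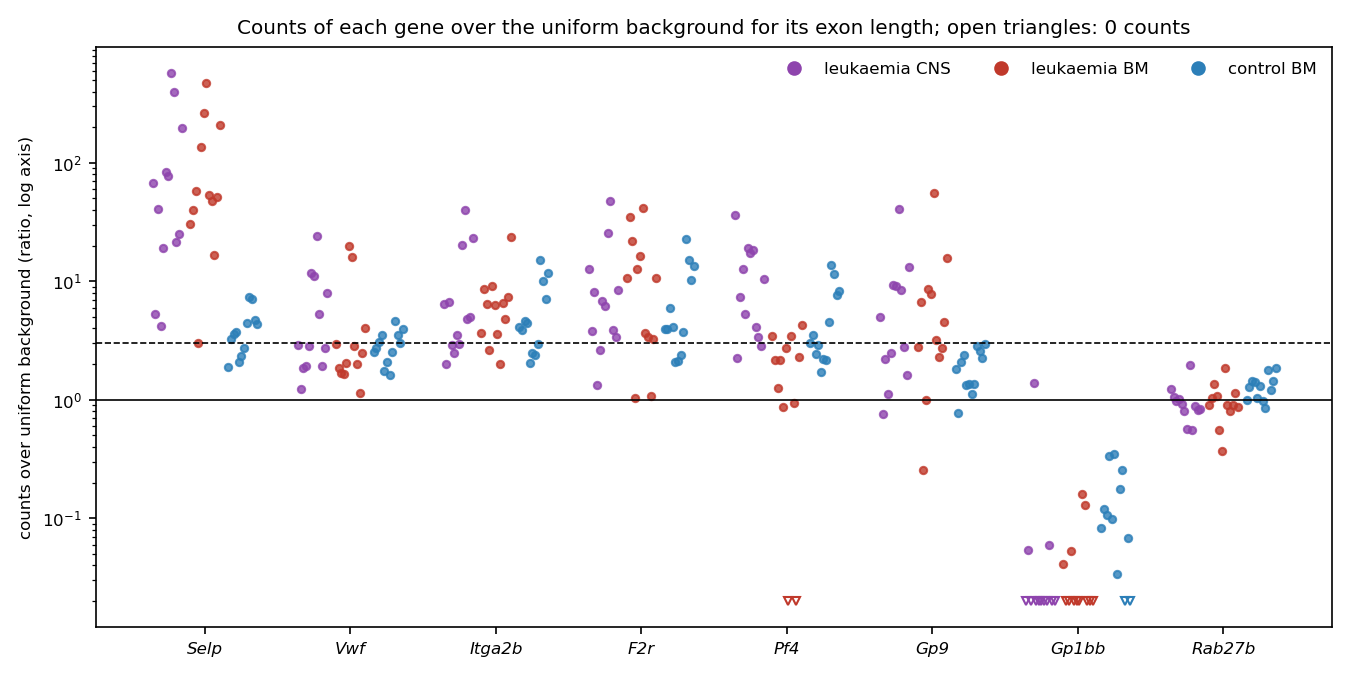
Ratio of each member's count to the background expected for its exon length, on a log axis, with 1 point per library; CNS, leukaemic BM and control BM libraries are coloured, open triangles mark 0 counts, the solid line marks a ratio of 1 and the dashed line a ratio of 3. Selp lies far above the lines in most libraries, with a median ratio of 23.3, while Rab27b stays around 1 in all 36.

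Selp (ENSMUSG00000026580, GRCm38 chr1:164115264-164150026), P-selectin, is the adhesion receptor that platelets and endothelium show after granule release, and it was the member with more RNA in leukaemic than in control marrow in each population. It had 101, 137, 208 and 31.0 CPM in leukaemic BM HSC, against 21.2, 36.4, 35.5 and 37.1 CPM in control HSC. The lowest leukaemic library, replicate 4, lay inside the control range and was also the one with the most background of its group, at 26.7% of counts. In LMPP it had 103, 159, 167 and 121 CPM in leukaemic BM, against 26.8, 25.3, 29.8 and 29.0 CPM in control BM. In LK it had 153, 55.7, 75.9 and 79.1 CPM in leukaemic BM, against 17.6, 26.6, 21.2 and 14.3 CPM in control BM. The groups did not overlap in LMPP and LK. How many of all genes separate in this way was not counted, here and wherever overlap is given below, so it describes the levels only. In the all-gene test its log2 fold change was 3.11 ± 0.46 (SE) in HSC, 3.75 ± 0.47 in LMPP and 2.52 ± 0.45 in LK, with edgeR adjusted p of 3.48e-06, 1.24e-07 and 0.000256. In the above-background test it was 1.75 ± 0.37, 2.16 ± 0.38 and 2.18 ± 0.37, with adjusted p of 0.000708, 4.89e-05 and 0.000209. Selp rose in leukaemia in all 3 populations in both tests, and in each of the 24 fits that left out 1 library. With the background taken off, its mean was 114, 137 and 88.9 CPM in leukaemic BM HSC, LMPP and LK, against 22.0, 17.5 and 16.4 CPM in the same control populations. In bulk RNA, fewer cells of a type and less RNA per cell cannot be told apart, here and in all comparisons that follow.

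Vwf (ENSMUSG00000001930, chr6:125546774-125686679), the plasma and granule protein that tethers platelets to the vessel wall, ran the other way. It had 35.7, 23.1, 21.8 and 62.3 CPM in leukaemic BM HSC, against 104, 111, 110 and 128 CPM in control HSC. In LMPP it had 5.59, 43.6, 20.7 and 23.5 CPM in leukaemic BM, against 81.9, 82.6, 64.2 and 60.5 CPM in control BM. In LK it had 23.4, 13.8, 13.3 and 5.56 CPM in leukaemic BM, against 40.6, 48.0, 49.7 and 47.3 CPM in control BM. Before the background was taken off, no leukaemic library reached the control range in any population. The above-background test gave log2 fold changes of -1.76 ± 0.42, -1.78 ± 0.43 and -1.73 ± 0.43 in HSC, LMPP and LK, with adjusted p of 0.00188, 0.00107 and 0.00584. These values stayed past the threshold in all 24 fits without 1 library. In the all-gene test the change was called in LK only, at -1.44 ± 0.38 with an adjusted p of 0.0198. It was -0.73 ± 0.37 in HSC and -0.14 ± 0.37 in LMPP, with adjusted p of 0.186 and 0.733. The LK call of that test was lost without leukaemic LK replicate 2 (-1.36, adjusted p 0.0637), leukaemic LK replicate 4 (-1.21, 0.120) or control LK replicate 4 (-1.43, 0.0548). With the background taken off, Vwf averaged 16.9, 19.7 and 6.36 CPM in leukaemic BM HSC, LMPP and LK, against 74.8, 34.9 and 33.7 CPM in control. On that scale the groups overlapped in LMPP, where leukaemic replicate 2 had 41.4 CPM and the control libraries lay between 24.4 and 43.3 CPM, and did not overlap in HSC and LK. Vwf was above background in 0, 2 and 1 of 4 leukaemic BM HSC, LMPP and LK libraries, and in 2, 0 and 3 of 4 control HSC, LMPP and LK libraries. The leukaemic BM libraries alone fell short of the 4 needed, so it entered the above-background test only with the control groups, in which it was high. That test's values for Vwf are therefore given as a description.

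Itga2b (ENSMUSG00000034664, chr11:102453297-102470122), the CD41 chain and an early surface mark of commitment to megakaryocytes, was lower in leukaemia by the levels. It had 15.2, 36.5, 28.5 and 33.7 CPM in leukaemic BM HSC, against 57.5, 53.4, 56.5 and 55.3 CPM in control HSC. In LMPP it had 8.55, 4.68, 1.59 and 5.66 CPM in leukaemic BM, against 32.3, 33.1, 31.9 and 23.8 CPM in control BM. In LK it had 26.1, 19.8, 13.4 and 11.1 CPM in leukaemic BM, against 44.4, 46.8, 39.5 and 47.4 CPM in control BM. The groups did not overlap in any population. In the above-background test it fell, with log2 fold changes of -1.08 ± 0.27, -2.50 ± 0.30 and -1.35 ± 0.27 in HSC, LMPP and LK (adjusted p 0.00286, 1.67e-06 and 0.00107), also in all 24 fits without 1 library. The all-gene test called none of the 3, and its sign in HSC was the opposite one: 0.07 ± 0.35 in HSC, -0.76 ± 0.36 in LMPP and -1.07 ± 0.35 in LK, with adjusted p of 0.919, 0.0607 and 0.0810. Leaving out 1 library made its LMPP value a call in 3 cases, without leukaemic HSC replicate 4 (-0.75, adjusted p 0.0450), leukaemic LMPP replicate 1 (-1.31, 0.00573) or control LK replicate 3 (-1.24, 0.00150). It made the LK value a call in 4 cases, without leukaemic HSC replicate 4 (-1.07, 0.0384), LMPP replicate 3 (-1.07, 0.0349) or LK replicate 1 (-1.25, 0.0398), or control LK replicate 3 (-1.22, 0.0315).

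F2r (ENSMUSG00000048376, chr13:95601803-95618487), the thrombin receptor, differed between the populations. It had 27.0, 90.6, 58.7 and 8.00 CPM in leukaemic BM HSC, against 33.6, 33.5, 44.6 and 31.2 CPM in control HSC, so the leukaemic libraries lay on both sides of the control range. In LMPP it had 7.26, 7.49, 11.2 and 6.26 CPM in leukaemic BM, against 19.96, 17.3, 19.9 and 18.7 CPM in control BM. In LK it had 8.20, 2.71, 3.66 and 3.04 CPM in leukaemic BM, against 41.3, 43.0, 34.9 and 33.1 CPM in control BM. In LK it fell in both tests and in all 24 fits of each that left out 1 library, with log2 fold changes of -2.81 ± 0.48 (all-gene, adjusted p 0.000153) and -3.10 ± 0.45 (above-background, adjusted p 3.48e-05). In LMPP the above-background test gave -1.48 ± 0.45 with an adjusted p of 0.00665, while the all-gene test gave 0.22 ± 0.46 with the opposite sign and an adjusted p of 0.676; with the background taken off, the LMPP groups overlapped, at 4.55 to 10.9 CPM in leukaemic BM and 9.11 to 13.7 CPM in control BM. In HSC the all-gene test gave 1.61 ± 0.45 with an adjusted p of 0.00564, and the above-background test 0.23 ± 0.40 with an adjusted p of 0.650. The HSC call was lost without leukaemic HSC replicate 2 (1.02, adjusted p 0.126). The difference in response between the populations was itself tested as an interaction of disease and cell type, with an adjusted p of 0.000238 for F2r in the all-gene test and 0.00148 in the above-background test.

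Pf4 (ENSMUSG00000029373, chr5:90772435-90773383), platelet factor 4, is a chemokine stored in alpha granules and a classical mark of the lineage. It had 1.88, 1.21, 0.727 and 3.61 CPM in leukaemic BM HSC, against 5.59, 6.42, 3.96 and 4.74 CPM in control HSC. In LMPP it had 0.108, 0.267, 0 and 1.29 CPM in leukaemic BM, against 3.59, 3.91, 3.84 and 4.90 CPM in control BM. In LK it had 0.494, 0, 0.554 and 0.265 CPM in leukaemic BM, against 5.41, 7.06, 5.61 and 4.39 CPM in control BM. No leukaemic BM library reached the control range, and the counts behind the leukaemic LK values were 5, 0, 5 and 2. With the background taken off, the groups still did not overlap. Pf4 was above background in 0 of the 12 leukaemic BM libraries, and in 0 of 4 HSC, 1 of 4 LMPP and 4 of 4 LK control libraries, so it entered the above-background test only through the control group in which it was high. That test's values for Pf4 are therefore given as a description. In the all-gene test Pf4 fell in LMPP and LK, with log2 fold changes of -1.53 ± 0.63 and -3.66 ± 0.65 (adjusted p 0.0336 and 0.000240); the above-background values were -3.11 ± 0.65 and -4.01 ± 0.65 (adjusted p 0.000283 and 0.000119). In HSC, where Pf4 was above background in no library of either group, the all-gene value was -0.58 ± 0.54 (adjusted p 0.534) and the above-background value -1.59 ± 0.56 (adjusted p 0.0237). The all-gene call in LMPP was lost without leukaemic LMPP replicate 1 (-1.12, adjusted p 0.148), 2 (-1.36, 0.0895) or 3 (-1.39, 0.0562), or control LMPP replicate 4 (-1.25, 0.0993). The above-background value in HSC was no longer past the threshold without leukaemic HSC replicate 1 (-1.59, 0.0550), 2 (-1.34, 0.0835) or 3 (-1.33, 0.0642), or control HSC replicate 2 (-1.48, 0.0577).

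Gp9 (ENSMUSG00000030054, chr6:87778072-87779768), the small chain of the glycoprotein Ib-IX-V complex, averaged 2.18 ± 1.82 CPM in leukaemic BM HSC, 1.92 ± 1.40 in LMPP and 1.45 in LK, against 3.68 ± 1.33, 2.64 and 1.82 CPM in control HSC, LMPP and LK (SD, n = 4 each). It was above background in 6 leukaemic libraries and in 0 control libraries. In leukaemic BM it was above background in 1 HSC, 1 LMPP and 0 LK libraries. It therefore did not enter the above-background test of leukaemia over control, and the all-gene test did not call it. Gp1bb reached at most 0.258 CPM in leukaemic marrow, against 1.79 CPM in control marrow, and had too few counts to be tested. Rab27b averaged 13.6, 2.03 and 4.59 CPM in leukaemic BM HSC, LMPP and LK, against 32.7, 26.3 and 12.9 CPM in control, and these values followed the background: with it taken off they were 1.32, 0.183 and 0.129 CPM in leukaemia, against 7.08, 2.28 and 4.51 CPM in control. The all-gene call for Rab27b in LMPP, -2.07 ± 0.45 with an adjusted p of 0.000227, therefore concerns counts at the level of the background.

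**Figure D2:**
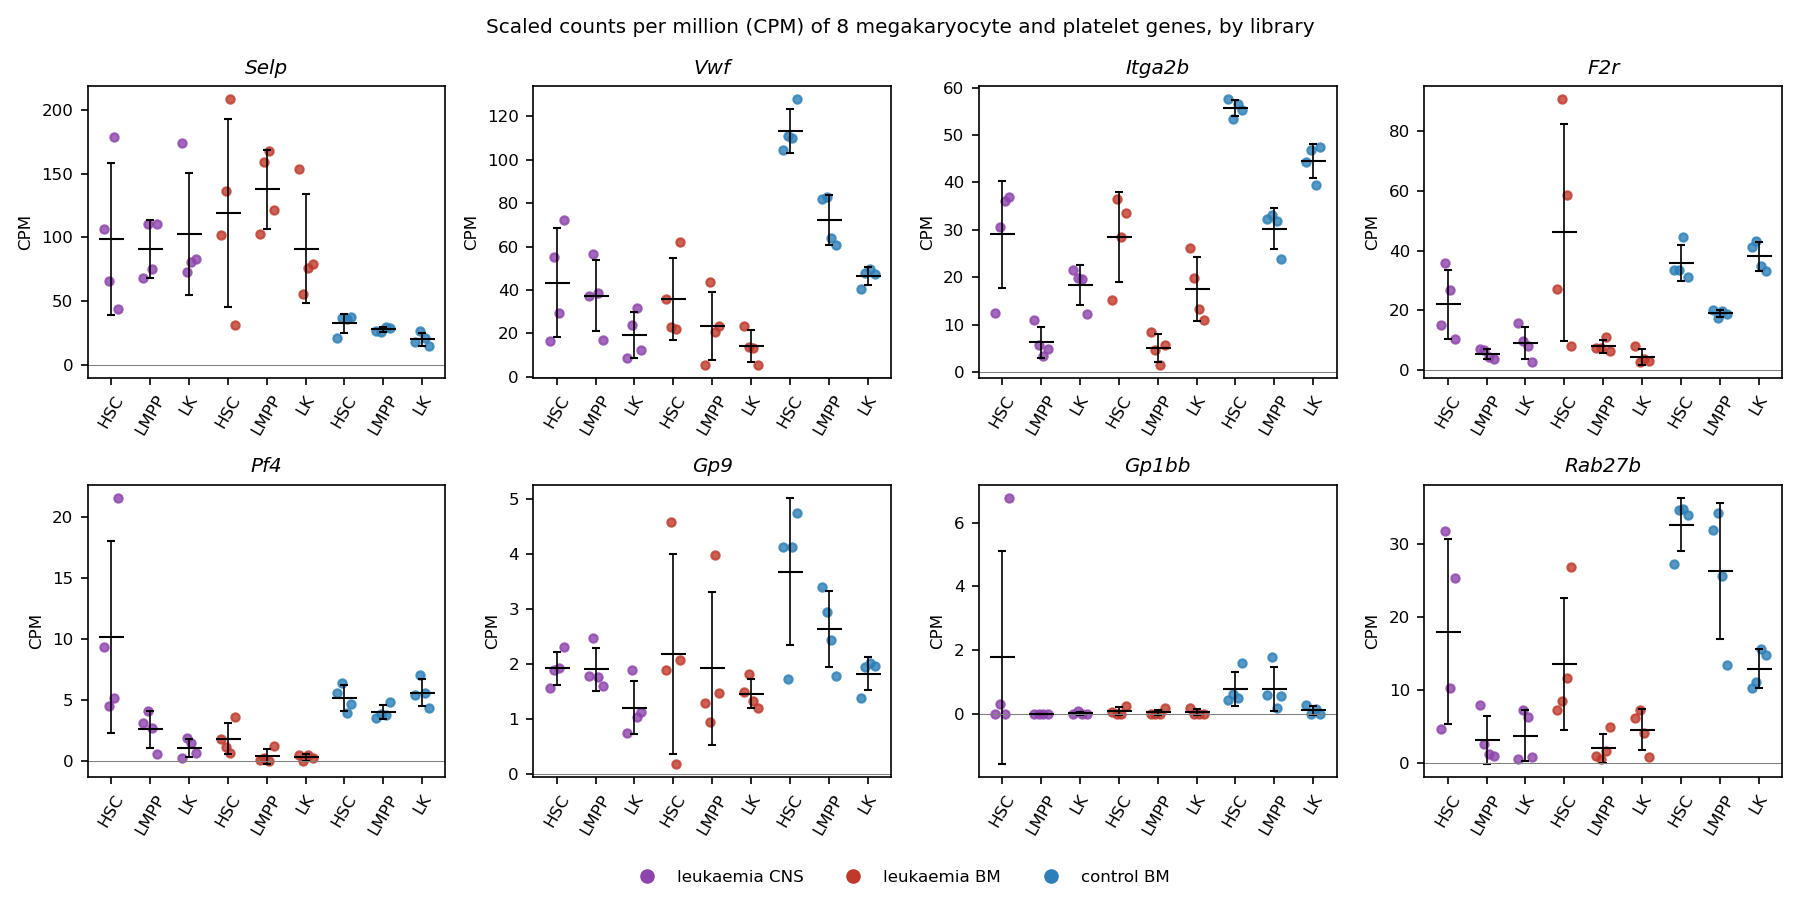
TMM-scaled CPM of each member, with 1 point per library and the mean ± SD of each group of 4; CNS, leukaemic BM and control BM groups stand side by side for HSC, LMPP and LK. Selp is higher in the leukaemic groups, at 91.0 to 138 CPM on average against 19.9 to 32.5 CPM in control, while Vwf, Itga2b and Pf4 are lower in the leukaemic BM groups.

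Of the 8 members, 7 entered the all-gene test of leukaemia over control in marrow, which called 2 of them in HSC (2 higher), 3 in LMPP (1 higher, 2 lower) and 4 in LK (1 higher, 3 lower). Over all 43483 genes that test called 21.4% in HSC (20.3% higher, 1.06% lower), 62.8% in LMPP (26% higher, 36.8% lower) and 3.52% in LK (2.22% higher, 1.3% lower). In the above-background test 5 members were tested and 4, 5 and 5 were called, each time with Selp higher and the others lower, against 48.1% of 15208 genes in HSC (27.5% higher, 20.6% lower), 64.6% in LMPP (32.7% higher, 31.9% lower) and 17.2% in LK (10% higher, 7.19% lower). Pf4 and Vwf, which entered that test only with the control groups, were among those lower. In HSC and LMPP, then, the shares called were high for all genes, and the members tested above background are not the whole set of 8. The median log2 fold change of the members was 0.07, -0.14 and -1.23 in the all-gene test, beside -0.12, -1.10 and -0.25 over all genes, and -1.08, -1.78 and -1.73 in the above-background test, beside -0.03, 0.02 and -0.04. The interaction of disease and cell type was called for F2r and Pf4 in the all-gene test (Pf4 adjusted p 0.0300), beside 12.6% of all genes, and for F2r and Itga2b in the above-background test (Itga2b adjusted p 0.0218, Pf4 0.0712), beside 30.8%. The number of members called by the all-gene interaction was 1 without leukaemic HSC replicate 1, leukaemic LK replicate 1 or 2, control HSC replicate 3 or 4, or control LK replicate 1, 2 or 3; by the above-background interaction it was 1 without leukaemic LMPP replicate 2.

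**Figure D3:**
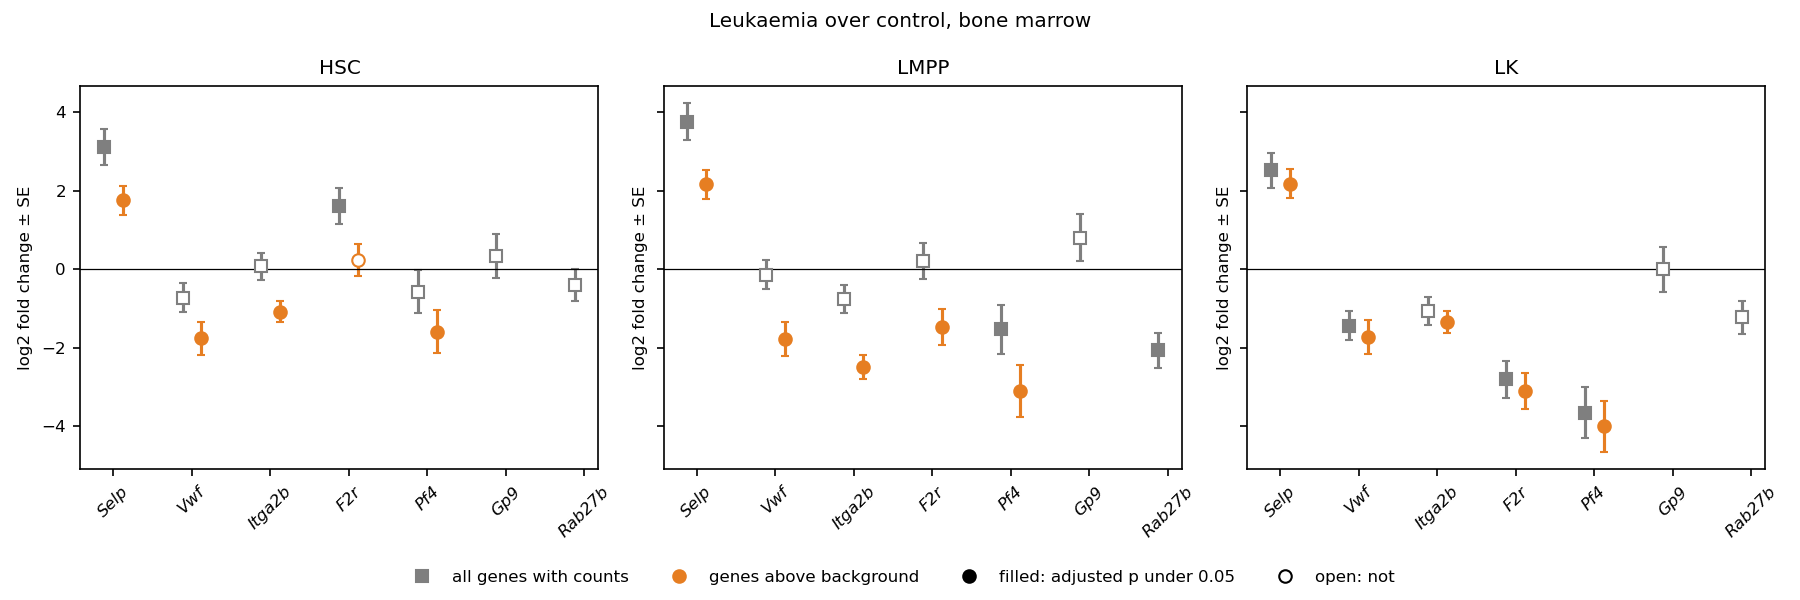
Log2 fold change ± SE of the members, leukaemia over control in BM HSC, LMPP and LK (4 against 4 libraries each); grey squares are the all-gene test, orange circles the above-background test, and filled symbols have an adjusted p under 0.05. Selp lies between 1.75 and 3.75 in all 3 populations, and F2r lies at 1.61 and 0.23 in HSC and at -2.81 and -3.10 in LK.

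Markers of other cells were read in the same contrast, beside the shares of all genes called that are given above. Of the 10 endothelial genes listed, 4 entered the above-background test: 1 rose and 2 fell in HSC, 1 rose and 2 fell in LMPP, and 1 rose in LK. The one that rose was Pecam1, which platelets and progenitors also carry, while Cdh5 and Tie1, the ones more particular to endothelium, fell in HSC and LMPP. The summed level of the list was 249.5 to 295.6, 218 to 319 and 213 to 294 CPM in leukaemic BM HSC, LMPP and LK, against 343 to 363, 341 to 353 and 161 to 197 CPM in control. The sums here are given with the background left in. A list of neural genes summed to 100 to 191, 66.0 to 109.5 and 61.7 to 91.9 CPM in leukaemic BM HSC, LMPP and LK. In control it summed to 202.5 to 222, 179 to 235 and 95.5 to 120 CPM. Of the 12 erythroid genes, 11 were tested: 2 rose and 3 fell in HSC, 2 rose and 7 fell in LMPP, and 2 rose and 8 fell in LK, with a sum of 95.3 to 422 CPM in leukaemic BM LK, against 1074 to 1567 CPM in control LK. Of the 8 mature neutrophil genes, 7 were tested, and 4 rose in HSC, 5 rose and 1 fell in LMPP, and 6 rose in LK, with sums of 456 to 1439, 9.22 to 4564 and 602 to 12190 CPM in leukaemic BM, against 77.1 to 110, 70.4 to 121 and 27.5 to 39.0 CPM in control. In LMPP the median sum was 22.5 CPM in leukaemic BM and 86.6 CPM in control, so most leukaemic LMPP libraries lay below the control range. The part of these lists, and of the background, in the members' differences was not tested. Leukaemic and control mice also differed in the overexpressed microRNA, and their libraries stood in separate deposited tables. Disease state, microRNA and table therefore cannot be told apart in any comparison of leukaemia over control.

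The rest of the platelet programme was read from 5 lists. Beside their counts stand the shares of all genes called above background. These were 48.1% in HSC (27.5% higher, 20.6% lower), 64.6% in LMPP (32.7% higher, 31.9% lower) and 17.2% in LK (10% higher, 7.19% lower). In the all-gene test the shares were 21.4%, 62.8% and 3.52%. Among 13 platelet adhesion and surface receptors, the above-background test took 8 and called 4 lower and 0 higher in HSC, 5 lower and 0 higher in LMPP, and 3 lower and 2 higher in LK. Gp1ba, the partner chain of Gp1bb that binds Vwf, fell in HSC, LMPP and LK, with log2 fold changes of -0.97 ± 0.27, -2.13 ± 0.29 and -1.25. The inhibitory receptor Mpig6b fell in HSC and LMPP (-1.84 and -3.89 ± 0.72), Gp5 fell in LK (-3.35 ± 0.71), and the integrin partner of Itga2b, Itgb3, rose by 1.31 ± 0.27 in LK. The all-gene test of these 13 genes called 0 higher and 1 lower in HSC, 3 higher and 6 lower in LMPP, and 2 higher and 2 lower in LK. The median log2 fold change of the list in the above-background test was -0.82, -2.62 and -0.74.

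The signalling and granule lists had more genes called higher than lower in each population, as all genes together did above background. Of 15 agonist receptors and signalling genes, 10 were tested above background, with 4 higher and 3 lower in HSC, 4 higher and 3 lower in LMPP, and 4 higher and 0 lower in LK. Plek, the pleckstrin of platelets and other blood cells, averaged 158, 266 and 229 CPM in leukaemic BM, against 25.5, 43.7 and 36.7 CPM in control, and rose by 2.50 ± 0.31, 2.47 and 2.62 on the log2 scale in HSC, LMPP and LK. Of 11 genes of granule contents and release, 8 were tested, with 5 higher and 0 lower in HSC, 6 higher and 2 lower in LMPP, and 2 higher and 0 lower in LK. They included Rab27a, the close relative of Rab27b that many leukocytes use (1.48 ± 0.17, 1.70 and 0.74), and Srgn, the granule proteoglycan serglycin, which rose by 1.71 and 1.32 in HSC and LMPP. F13a1, the coagulation factor that monocytes also make, averaged 214 and 102 CPM in leukaemic BM HSC and LMPP, against 23.1 and 21.5 CPM in control, and rose by 3.12 ± 0.67 and 2.15. Plek, Rab27a, Srgn and F13a1 are also used by myeloid cells, and the neutrophil sums given above were higher in the leukaemic HSC and LK groups; the part of such cells was not tested. In the all-gene test the signalling list had 4 higher and 0 lower in HSC, 7 higher and 2 lower in LMPP, and 3 higher and 0 lower in LK, and the granule list 7 and 0, 7 and 2, and 1 and 0.

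Of the 5 cytoskeleton genes, 4 were tested above background. Flna and Myh9, which most cells use, rose by 1.94 and 1.73 in HSC, while in HSC and LMPP Tubb1, the platelet tubulin, fell in both (-1.65 and -3.22); the counts were 2 higher and 1 lower in HSC, 2 and 2 in LMPP, and 2 and 0 in LK. The all-gene test called 2 higher and 0 lower, 2 and 1, and 0 and 0. All 9 transcription factors of the lineage were tested above background, with 4 higher and 3 lower in HSC, 3 and 3 in LMPP, and 2 and 5 in LK. Gata1, the erythroid-megakaryocytic factor, averaged 12.96, 1.25 and 3.08 CPM in leukaemic BM HSC, LMPP and LK, against 22.1, 18.1 and 53.7 CPM in control, and fell, with log2 fold changes of -3.60 ± 0.42 in LMPP and -4.11 ± 0.39 in LK. Tal1 fell, with -2.23 ± 0.29, -3.01 and -3.95 in HSC, LMPP and LK, while the ETS factor Fli1 rose by 0.95 in HSC and 1.25 in LMPP and Runx1 by 0.86 in HSC. In the all-gene test 5 rose and 1 fell in HSC, 6 rose and 2 fell in LMPP, and 0 rose and 4 fell in LK.

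Within control marrow, where the same 4 mice gave all 3 populations, the order of the levels differed by gene. Vwf averaged 113 ± 10.1 CPM in HSC, 72.3 ± 11.6 in LMPP and 46.4 ± 4.03 in LK (SD, n = 4 each), and the libraries of these populations did not overlap before the background was taken off. With it taken off, Vwf averaged 74.8 CPM in HSC, 34.9 CPM in LMPP (24.4 to 43.3) and 33.7 CPM in LK (31.8 to 35.3), so LMPP and LK overlapped and HSC stood above both. Itga2b averaged 55.7 ± 1.76, 30.3 ± 4.33 and 44.5 ± 3.60 CPM, with LMPP lowest. F2r averaged 35.7 ± 6.02, 18.9 ± 1.26 and 38.1 ± 4.82 CPM, and HSC and LK overlapped. Selp averaged 32.5 ± 7.59, 27.7 ± 2.09 and 19.9 ± 5.28 CPM, and Pf4 5.18 ± 1.06, 4.06 ± 0.578 and 5.62 ± 1.10 CPM, with overlap between neighbours.

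The tests of these differences turned on the scaling. For HSC over LK the all-gene test called 3 members, all lower in HSC, beside 44.7% of 41609 genes (19.7% higher, 25% lower), and the above-background test called 4, all higher in HSC, beside 70.4% of 11083 genes (36.7% higher, 33.7% lower). F2r was -1.32 ± 0.22 (adjusted p 5.54e-06) in the all-gene test and 0.34 ± 0.14 (adjusted p 0.0315) above background, and Itga2b was -0.90 ± 0.21 (adjusted p 0.000783) and 0.75 ± 0.13 (adjusted p 7.04e-05), so both flipped direction between calls. With the background taken off, Itga2b averaged 42.6 CPM in HSC and 40.2 CPM in LK, and F2r 27.7 CPM in HSC and 35.5 CPM in LK. No direction is therefore given for either. Selp was -0.49 ± 0.22 (adjusted p 0.0637) and 1.12 ± 0.20 (adjusted p 7.73e-05), and Pf4 was -1.30 ± 0.27 (adjusted p 0.000126) and 0.32 ± 0.27 (adjusted p 0.311), with a flip of sign in each. Vwf had the same sign in both, 0.08 ± 0.22 (adjusted p 0.773) and 1.70 ± 0.16 (adjusted p 8.37e-08). The above-background call for F2r was lost without control HSC replicate 3 (0.25, adjusted p 0.115) or control LK replicate 4 (0.32, 0.0663), and the all-gene value for Selp became a call without control LMPP replicate 4 (-0.49, 0.0461) or control LK replicate 4 (-0.61, 0.0388).

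For LMPP over LK the all-gene test called 4 members, all lower in LMPP, beside 39.8% of genes (15.3% higher, 24.5% lower), and the above-background test 3 (2 higher, 1 lower), beside 66.1% (34.6% higher, 31.5% lower). F2r was lower in LMPP in both, at -2.15 ± 0.23 (adjusted p 2.31e-09) and -0.65 ± 0.14 (adjusted p 0.000491), and in each fit of both tests that left out 1 library. Itga2b was -1.72 ± 0.22 (adjusted p 6.92e-08) and -0.20 ± 0.14 (adjusted p 0.209), and Pf4 -1.56 ± 0.27 (adjusted p 1.03e-05) and -0.12 ± 0.28 (adjusted p 0.721). Selp flipped, with -0.62 ± 0.22 (adjusted p 0.0206) and 0.83 ± 0.20 (adjusted p 0.00140), and so did Vwf, with -0.50 ± 0.22 (adjusted p 0.0702) and 1.00 ± 0.16 (adjusted p 3.00e-05). The all-gene call for Selp was lost without control LMPP replicate 1 (-0.55, adjusted p 0.0624), 2 (-0.55, 0.0666) or 3 (-0.50, 0.0890), or control LK replicate 2 (-0.52, 0.0765).

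HSC over LMPP was the comparison in which the scalings lay closest. The 3 members past the threshold there, in the above-background test only, had higher values in HSC. The all-gene test called 0 of the 7 members tested (beside 0.183% of genes, 0.0721% higher and 0.111% lower), with F2r at 0.84, Itga2b at 0.81 and Vwf at 0.58. The above-background test called 3 of 5, beside 2.25% of genes (0.55% higher, 1.7% lower): F2r 0.99 ± 0.14 (adjusted p 0.000946), Itga2b 0.95 ± 0.14 (adjusted p 0.00104) and Vwf 0.71 ± 0.16 (adjusted p 0.0285). Itga2b and Vwf were above background in 0 of 4 control LMPP libraries, and F2r in 1 of 4. In control HSC it was 4 of 4 for Itga2b, 2 of 4 for Vwf and 4 of 4 for F2r. Itga2b and Vwf thus entered that test only through HSC and LK, and its values for these 3 genes are given as a description. Pf4 at 0.44 ± 0.29 (adjusted p 0.460) and Selp at 0.29 ± 0.20 (adjusted p 0.480) were not called. The Vwf call was lost with the mouse as a block (adjusted p 0.0701) and in 7 of 12 fits that left out 1 library: without control HSC replicate 1, 2, 3 or 4 (0.74, 0.72, 0.73 and 0.64), control LMPP replicate 3 (0.65) or control LK replicate 2 or 4 (0.72 and 0.72). F2r became a call in the all-gene test without control LK replicate 1 (0.84, adjusted p 0.0487). In the above-background test Gata2, Zfpm1 and Tal1 were also higher in HSC, by 1.39, 1.27 and 0.90 on the log2 scale.

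**Figure D4:**
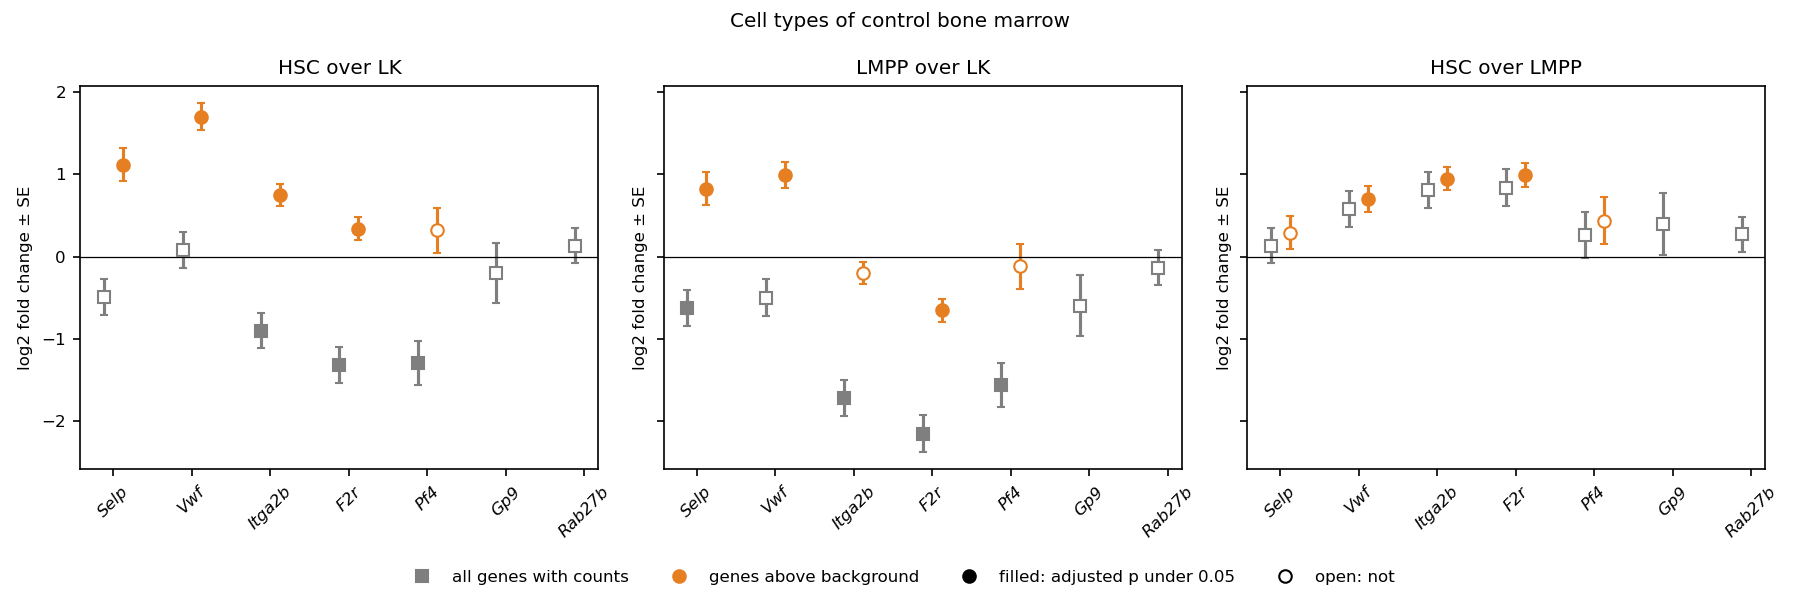
Log2 fold change ± SE of the members between populations of control marrow, HSC over LK, LMPP over LK and HSC over LMPP (4 libraries each); grey squares are the all-gene test, orange circles the above-background test, and filled symbols have an adjusted p under 0.05. The 2 scalings lie on opposite sides of 0 for Itga2b and F2r in HSC over LK and within about the same range in HSC over LMPP, where F2r is at 0.84 and 0.99.

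In leukaemic mice the order of the populations was seen in both niches for Itga2b. It averaged 29.0 ± 11.4, 6.30 ± 3.33 and 18.4 ± 4.14 CPM in CNS HSC, LMPP and LK, and 28.5 ± 9.46, 5.12 ± 2.87 and 17.6 ± 6.74 CPM in BM HSC, LMPP and LK (SD, n = 4 each). All HSC libraries lay above all LMPP libraries in both niches. The all-gene test called 0 of the 7 members tested in any of these 6 comparisons, where it called 0%, 0% and 0% of 40332 genes for HSC over LK, HSC over LMPP and LMPP over LK in BM, and 0%, 0.0595% and 0.00496% in CNS. The above-background test called Itga2b for HSC over LMPP, at 2.31 ± 0.42 (adjusted p 0.00711) in CNS, beside 12.9% of 15823 genes, and 2.36 ± 0.43 (adjusted p 0.0396) in BM, beside 0.0695%. The CNS call held in all 24 fits without 1 library, and the BM call was lost in 9 of 24, with values of 2.20 to 2.36: without BM HSC replicate 2 (2.23) or 3 (2.36), BM LMPP replicate 2 (2.26), 3 (2.20) or 4 (2.36), CNS LMPP replicate 2 (2.36) or 3 (2.36), BM LK replicate 3 (2.36) or CNS LK replicate 3 (2.36). Its all-gene value in CNS, 1.45, became a call without CNS HSC replicate 1 (1.55, adjusted p 0.0219), and so did its above-background value for LMPP over LK in CNS (-1.615, adjusted p 0.0423, against -1.612 and 0.0784 with all libraries).

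F2r was higher in HSC than in LMPP of CNS, at 22.0 ± 11.5 CPM in HSC and 5.54 ± 1.68 CPM in LMPP, with an above-background log2 fold change of 2.07 ± 0.57 (adjusted p 0.0255). That call was lost without CNS HSC replicate 2 (1.74, adjusted p 0.0953) or CNS LMPP replicate 2 (2.19, 0.0612), 3 (1.98, 0.0872) or 4 (1.93, 0.0640). In BM it was higher in HSC, 46.1 ± 36.3 CPM, than in LK, 4.40 ± 2.56 CPM, by 3.39 ± 0.60 (adjusted p 0.0297), beside 0.0316% of genes called. That call was lost without BM HSC replicate 2 (2.84, adjusted p 0.169) or 3 (3.25, 0.108) or BM LK replicate 2 (3.22, 0.110), 3 (3.30, 0.240) or 4 (3.25, 0.240). Without BM HSC replicate 4, the library with the most background of its group, the all-gene value became a call too (3.53, adjusted p 0.00694), and F2r was called for HSC over LMPP in BM above background (2.97, adjusted p 0.0260). In control marrow F2r in HSC and LK overlapped, so the wide gap of leukaemic marrow lay beside the interaction given above.

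Pf4 averaged 10.2 ± 7.87 CPM in HSC and 1.10 ± 0.715 CPM in LK of CNS. It was above background in 3 of 4 CNS HSC, 2 of 4 CNS LMPP and 0 of 4 CNS LK libraries, so it entered the above-background test only through the groups in which it was high. The all-gene test did not call it, at 2.60 ± 0.79 (adjusted p 0.157), and the above-background value, 3.23 ± 0.80 (adjusted p 0.0260), beside 7.98% of genes, is given as a description. That value was no longer past the threshold without CNS HSC replicate 2 (3.503, adjusted p 0.0545) or 4 (2.55, 0.0834) or CNS LK replicate 1 (2.92, 0.0554) or 4 (3.08, 0.101). In the same comparison 6 of the 6 border macrophage genes tested (of 8 listed) and 7 of the 11 microglia genes tested (of 12 listed) were higher in HSC; the part of these cells in the Pf4 value was not tested. For LMPP over LK the above-background test called none of the 6 members tested in either niche, beside 0.373% of genes in CNS and 0.00632% in BM. Selp and Vwf were called in none of the comparisons between leukaemic populations.

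Each leukaemic mouse gave a CNS and a BM library, so the niches were also compared within the mouse. Pf4 had 9.40, 4.54, 5.21 and 21.5 CPM in CNS HSC, against 1.88, 1.21, 0.727 and 3.61 CPM in BM HSC of the same mice. In LMPP it had 3.11, 4.15, 2.71 and 0.585 CPM in CNS, against 0.108, 0.267, 0 and 1.29 CPM in BM. In LK it had 0.298, 1.88, 1.48 and 0.732 CPM in CNS, against 0.494, 0, 0.554 and 0.265 CPM in BM. It was higher in CNS in 10 of 12 mice, in 4 of 4 of the HSC pairs and 3 of 4 of each other population, with a median difference of 2.14 on the log2(CPM + 0.5) scale. The exceptions were LMPP mouse 4, at -0.72, and LK mouse 1, at -0.32.

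No member passed the all-gene test of CNS over BM, which called 0% of 40332 genes, with 794 genes at an unadjusted p under 0.05 and 0 members called by DESeq2. Pf4 was at 2.19 ± 0.48 (adjusted p 0.137) over all populations. In the above-background test it was 2.14 ± 0.48 (adjusted p 0.110), and with the mouse as a block on all genes 2.21 ± 0.59 (adjusted p 0.284). In the leukaemic libraries Pf4 was above background in 5 of 12 CNS libraries and in 0 of 12 BM libraries, and so entered the tests of genes above background only through the CNS. With the mouse as a block on those genes, where 2.68% of 15823 genes were called, Pf4 was past the threshold, at 2.17 ± 0.54 with an adjusted p of 0.0457, a value that is no support beyond the all-gene tests; none of the other 5 members tested there was called. Leaving out both libraries of 1 mouse ended that in 10 of 12 cases, with values of 1.85 to 2.22 and adjusted p of 0.0551 to 0.129. It remained past the threshold without LMPP mouse 4 or LK mouse 1, the 2 mice with the opposite sign. In the tests without the block, Pf4 became a call without the CNS library of LMPP mouse 4 (2.30, adjusted p 0.0447, in the all-gene test, and 2.26, 0.0428, above background) or the BM library of LMPP mouse 2 (2.07, 0.0403, above background). By population, the blocked above-background values were 2.40 ± 0.79 in HSC, 2.61 ± 1.06 in LMPP and 1.51 ± 0.95 in LK, none called in the full set, beside 0%, 2.04% and 0.00632% of genes; without LMPP mouse 4 the LMPP value was 4.39 (adjusted p 0.0337).

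Of the 6 border macrophage genes tested with the block above background, out of 8 listed, 1 was called between the niches. The sum of the 8 genes was 161 to 1320, 29.7 to 369.7 and 36.3 to 73.0 CPM in CNS HSC, LMPP and LK, against 68.9 to 151, 31.9 to 65.9 and 30.7 to 61.9 CPM in the paired BM groups, so that the LK ranges overlapped. Apoe, a lipid carrier abundant in brain macrophages, was higher in CNS in 11 of 12 mice and rose by 1.98 ± 0.34 (adjusted p 0.00897) in the blocked above-background test. The mouse with the highest sum, HSC mouse 1 at 1320 CPM, was not the one with the most Pf4, which was HSC mouse 4. LMPP mouse 4 had the lowest sum in CNS, at 29.7 CPM, and the lowest Pf4 of the CNS LMPP libraries. In HSC mouse 4 Pf4 differed by 2.42 on the log2(CPM + 0.5) scale. Of the border macrophage genes compared by pair, Apoe (2.53), Mrc1 (0.69) and Cd163 (0.32) differed in the same direction there, and Lyve1 (-0.83) in the opposite one. The part of such cells in the Pf4 difference was not tested.

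No other member was called between the niches. In the blocked above-background test over all populations, Vwf was at 0.48 ± 0.29 (adjusted p 0.582), Itga2b at 0.10 ± 0.12 (adjusted p 0.878), Gp9 at 0.03 ± 0.36, F2r at -0.12 ± 0.19 (adjusted p 0.917) and Selp at -0.22 ± 0.12 (adjusted p 0.512). Vwf was higher in CNS in 9 of 12 mice, Itga2b in 8, Selp in 6, Gp9 in 6 and F2r in 4. F2r had 15.2, 35.9, 26.8 and 10.3 CPM in CNS HSC, against 27.0, 90.6, 58.7 and 8.00 CPM in BM HSC, and in LK 15.8, 9.88, 8.20 and 2.73 CPM in CNS, against 8.20, 2.71, 3.66 and 3.04 CPM in BM. It was higher in CNS in 1 of 4 HSC mice, 0 of 4 LMPP mice and 3 of 4 LK mice, but the interaction of niche and population called 0 of all genes. Selp was higher in CNS in 2 of 4 HSC mice, 0 of 4 LMPP mice and 4 of 4 LK mice. Of the platelet lists, Cd226 was higher in CNS in the blocked above-background test (1.17 ± 0.23, adjusted p 0.0190), and Tbxa2r and Rasgrp2 were lower (-0.81 and -0.53), from 4 surface receptors and 12 signalling genes tested.

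**Figure D5:**
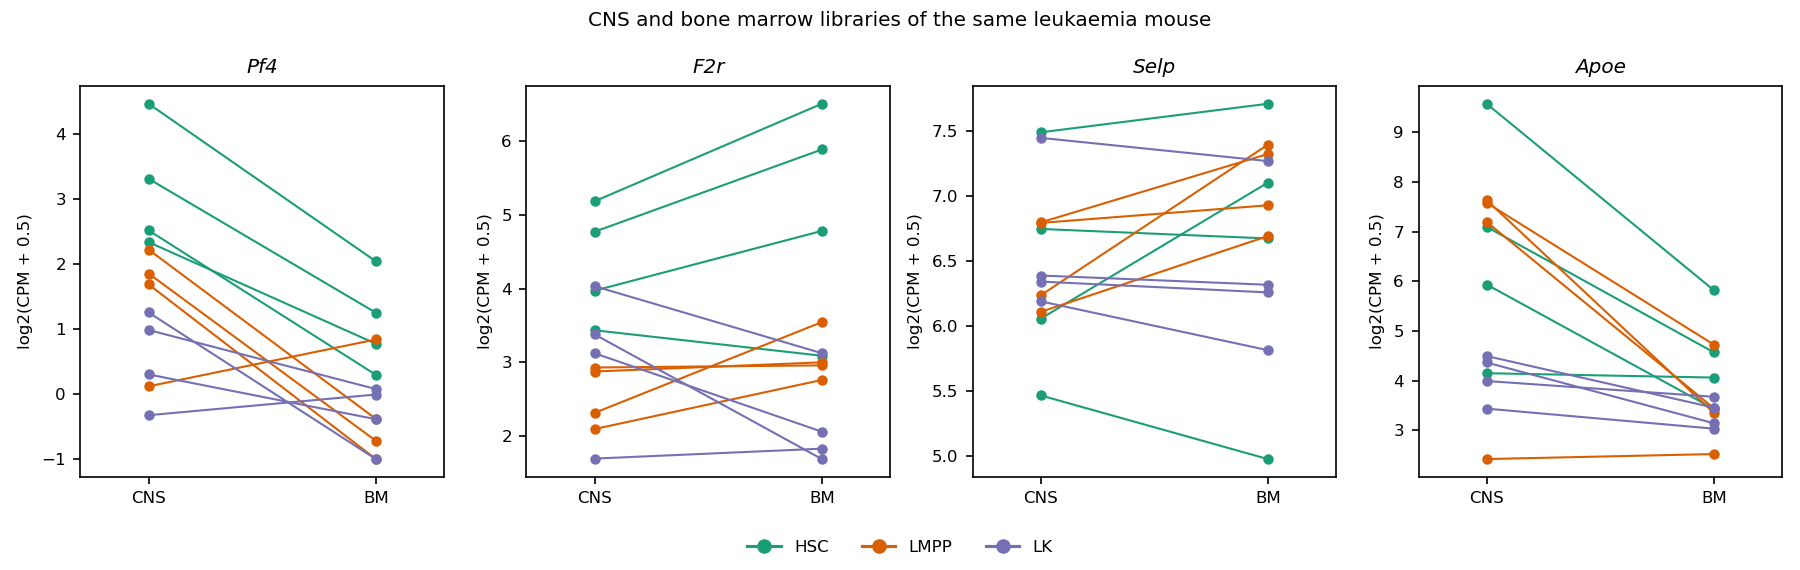
Level of Pf4, F2r, Selp and Apoe as log2(CPM + 0.5) in CNS (left) and BM (right) libraries, with 1 line per leukaemic mouse coloured by sorted population (12 mice). Pf4 is higher in CNS in 10 of 12 mice and Apoe in 11, while F2r is higher in CNS in 4 and Selp in 6.

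Across the 36 libraries the members did not form 1 pattern. The highest values of Spearman's rho between members were with Rab27b, whose counts lay at the background: 0.83 with Itga2b, 0.83 with Vwf and 0.77 with Gp1bb, and Vwf and Gp1bb were also at 0.77. It was 0.76 between Itga2b and F2r, 0.70 between Pf4 and Vwf and 0.66 between Itga2b and Pf4, while Selp ran against the others, from -0.32 with F2r to -0.67 with Rab27b. The genes with the most similar ranks over all libraries were Sdsl (0.933), Shank3 (0.921) and Myo1d (0.919) for Itga2b, and Vamp5 (0.896), Tfr2 (0.883) and Slc18a2 (0.883) for F2r. For Pf4 they were Lmna (0.843) and Bex4 (0.815), for Vwf Ago4 (0.945), Gm44974 (0.937) and Mllt3 (0.935), and for Selp Rapgef2 (0.937), Fam169a (0.928) and Slc35b4 (0.920). For Gp9 the closest was Irf4 (0.809) and for Gp1bb Gm21936 (0.872). Rab27b ranked with Dnah1 (0.982), Otof (0.982) and Zan (0.981), genes of cilia, hair cells and sperm, which sits beside its counts at the level of the background. These values describe 9 groups whose libraries share depth, background and disease state, and they carry no test.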

How the data were processed

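Whole-number counts per gene were deposited by the authors in 2 tables, 1 of leukaemic and 1 of control libraries, and were used as they are; the tables' names call them normalised, but the library totals differ and no scaling was found. Per the labels' protocols, RNA was extracted with the Zymo Quick-RNA Microprep kit and libraries were made with the SMARTer Stranded Total RNA-Seq Pico kit. The submitters' processing notes name DESeq2 and GRCm39; neither they nor the labels name an aligner or counter, or say how strand was treated. Gene symbols, exon lengths and coordinates come from GENCODE on GRCm38, with a symbol for 52081 and an exon length for 52133 of 55414 identifiers.

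The 3 models were fitted with edgeR 4.0.16 (quasi-likelihood, TMM, R 4.3.3): the 24 leukaemic libraries, the 12 control libraries, and the 24 BM libraries of both tables. In the last of these, table, microRNA and disease state cannot be told apart. Genes with at least 10 counts in 4 libraries were tested, and in the above-background test genes over the background limit in 4 libraries. P-values were adjusted by Benjamini-Hochberg over all genes of a fit. The replicates are separate mice. In the leukaemic set the same mouse gave a CNS and a BM library, which pairs them; deviations from the group means of such pairs correlated with a median of 0.248 (-0.369 to 0.729), and those of the control pairs with a median of 0.023. No 2 libraries were identical or within sampling noise of each other. Alternatives were DESeq2 1.42.0, RLE size factors, no filter, only the groups compared, the mouse as a block, and 1 library left out; scaling on genes above background with all genes tested, and leaving out libraries or mice in the above-background fits, were chosen after seeing the data. The fits were tested on simulated counts. The members and gene lists were chosen with earlier results of these data known. The genes named are the members, up to 4 called genes of each list with the smallest p, and the 3 most similar genes of each member by Spearman's rho. Some genes that this rule picks are not reported here.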

Additional observations from a re-analysis of the deposited data

Results flagged for a closer look

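In 10 of 71 sets of 4 libraries, 1 library stood apart from the other libraries of its group. Chance gives this in about 1 of 20 for continuous values. Where the other libraries were all at 0, as in some sets of Gp1bb, any count at all meets the rule, so the number of sets cannot be held against that rate. For Gp1bb the value that stood apart was 6.76 CPM in CNS HSC replicate 4, where the others were at most 0.313 CPM, and 0.0941 CPM in CNS LK replicate 2, 0.172 CPM in leukaemic BM LMPP replicate 4 and 0.198 CPM in leukaemic BM LK replicate 1, where the others were at 0. It was 1.58 CPM in control HSC replicate 4, where the others were at most 0.627 CPM. CNS HSC replicate 4 was also the library of its group with the most Pf4 and with an erythroid sum of 1464 CPM.

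Selp was at 174 CPM in CNS LK replicate 1, where the others lay between 72.4 and 83.1 CPM; the BM library of the same mouse was also the highest of its group, at 153 CPM. Selp was at 21.2 CPM and Rab27b at 27.2 CPM in control HSC replicate 1, where the others were at least 35.5 and 33.9 CPM. Itga2b was at 23.8 CPM in control LMPP replicate 4 (others 31.9 to 33.1 CPM), and Gp9 at 1.37 CPM in control LK replicate 1 (others 1.94 to 2.02 CPM).

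The change of leukaemia over control differed between HSC, LMPP and LK for F2r (interaction adjusted p 0.000238 in edgeR) and Pf4 (0.0300) in the all-gene test. F2r was at 1.61, 0.22 and -2.81 and Pf4 at -0.58, -1.53 and -3.66 in HSC, LMPP and LK. In the above-background test F2r was at 0.23, -1.48 and -3.10, and the interaction was called for F2r but not for Pf4. With 1 library left out, the all-gene interaction called 1 to 3 members instead of 2.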

How the results depend on the processing

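Several values depended on whether the scaling used all genes or the genes above background. Scaled on genes above background, log2 fold changes of HSC over LK in control marrow turned round for Selp (1.12), Itga2b (0.75), Pf4 (0.32) and F2r (0.34), also with a replicate block (1.12, 0.74, 0.30 and 0.33) and with all genes tested on that scaling (1.12, 0.75, 0.31 and 0.34), where Gp9 was called at 1.40 (adjusted p 0.00498). For LMPP over LK, Vwf (1.00; block 0.99; all genes tested 1.00), Selp (0.83; block 0.85; all genes tested 0.82) and Rab27b (all genes tested 1.38, called) turned round. For leukaemia over control, Itga2b in HSC was -1.08 above background, -1.08 with all genes tested on that scaling, -0.85 with DESeq2 and -0.85 with RLE factors, and F2r in LMPP was -1.48, -1.45, -1.08 and -1.11.

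Counts of members called depended on the same choices. For leukaemia over control, HSC had 4 above background, 4 with DESeq2 and 1 with only the groups compared, instead of 2, and LMPP had 5 above background and 6 with all genes tested on that scaling, DESeq2 or RLE factors, instead of 3; the interaction had 4 with DESeq2 and 1 with RLE factors, instead of 2. In control marrow, HSC over LK had 5 with all genes tested on the above-background scaling instead of 3, and HSC over LMPP 3 above background and 2 with the block, with all genes tested or with DESeq2, instead of 0. In leukaemia, instead of 0, CNS over BM had 1 with the replicate block above background or with no filter, HSC over LK had 1 in BM and in CNS above background or with DESeq2, HSC over LMPP had 1 above background and 2 with DESeq2 or only the groups compared in BM, and 2 above background, 3 with DESeq2 and 1 with RLE factors or all genes tested in CNS, and LMPP over LK in CNS 1 with DESeq2. Against the same genes without the block, the replicate block changed the calls of Pf4 for CNS over BM and of Vwf for HSC over LMPP in control marrow, and no other call of a member.

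With 1 library left out, the counts ranged over 1 to 2 (above background 3 to 4) in HSC, 2 to 4 (5 to 5) in LMPP and 3 to 5 (5 to 5) in LK for leukaemia over control, and 1 to 3 in both tests for the interaction. In control marrow they were 3 to 4 (3 to 4) for HSC over LK, 3 to 4 (3 to 3) for LMPP over LK and 0 to 1 (2 to 3) for HSC over LMPP. In leukaemia they were 0 to 1 (0 to 1) for CNS over BM, also with mice left out of the blocked fit over all populations and in LMPP, 0 to 1 (0 to 1) for HSC over LK in BM, 0 to 0 (0 to 1) in CNS, 0 to 0 (0 to 2) for HSC over LMPP in BM, 0 to 1 (1 to 2) in CNS, and 0 to 0 (0 to 1) for LMPP over LK in CNS. The other counts stayed at 0. Of the levels, 58 of 144 moved by more than 1 SD when computed per M of the library total without TMM factors or with the background taken off. Rab27b had counts at the level of the background, and Gp1bb had too few counts to be tested. The cause of the changes was not tested.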
